A study of Mus musculus with 45 samples.

Results

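The comparison is between the primary tumors of 2 sister lines of mouse mammary carcinoma, 4T1 and 4T07, with 3 tumors of each line. These 6 libraries were picked by the cell line and tissue that the sample labels give, out of 45 libraries from tumors, scaffolds, lungs and spleens. Female Balb/c mice received a subcutaneous polycaprolactone scaffold, a porous implant that gathers immune and tumor cells, at 7 to 8 weeks of age and, 2 weeks later, 2000000 cancer cells in the fourth right mammary fat pad. All tumors were taken on day 14 and sequenced as bulk tissue by 3' tag RNA sequencing. Of 55367 gene symbols, the 19476 with more than 10 counts over the 6 tumors were tested. A mammary tumor that arose in a BALB/cfC3H mouse is the common source of 4T1, 4T07 and the third line, 67NR. Cells of 4T1 leave the mammary gland and form metastases, mostly in the lung, 4T07 cells reach distant tissues without forming colonies there, and 67NR cells stay at the primary site. Each group is thus a single transplanted line, growing with host cells in an immunocompetent strain, and 4T1 was obtained from another supplier than the other two lines. The 3 tumors of 67NR entered the fit to estimate the spread and are given for reference.

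Carcinoma cells lie on a range between epithelial and mesenchymal states. Epithelial cells are joined by tight junctions (claudins, occludin), adherens junctions (E-cadherin, encoded by Cdh1) and desmosomes, carry keratin filaments and rest on a laminin basement membrane, while mesenchymal cells express vimentin and depend on transcription factors such as Twist, Snail and Zeb. The immune side of a tumor is often described through interferon gamma, a cytokine of T and NK cells that signals through the kinases Jak1 and Jak2 and raises guanylate-binding proteins, antigen presentation, chemokines that attract T cells, and the checkpoint ligand PD-L1 (Cd274). Both programs are well known subjects of work on 4T1 and its sister lines.

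Library totals of the 6 tumors ran from 3543303 to 5511691 counts, so that 3 counts, taken here as the floor of a library, correspond on average to 0.604 CPM (the gene's count in 1000000 counts of its library) in 4T1 and 0.664 CPM in 4T07 tumors. Correlations were taken over the 11604 tested genes with a mean of at least 5 CPM over the 6 tumors. Pearson's r of log2(CPM + 1) was 0.970 to 0.985 between 4T1 tumors and 0.956 to 0.968 between 4T07 tumors. Between a 4T1 and a 4T07 tumor it was 0.882 to 0.910. The 3 tumors of a line came from separate mice, so p-values measure the spread between mice that carried the same line. Of the 6 libraries, 4T07 replicate 1 stood apart. Its summed level of 20 erythroid genes was 22814 CPM, against 5733 and 4696 CPM in the other 4T07 tumors and 1909 to 2370 CPM in the 4T1 tumors. Its summed neutrophil markers reached 6534 CPM, against 2782 and 1753 CPM in the other 4T07 tumors and 1419 to 1863 CPM in 4T1. In this library 31 genes were more than 4 times their next highest level among the 6 tumors, against 7 in 4T1 replicate 3, 2 in 4T07 replicate 3 and 1 in 4T07 replicate 2. Skeletal muscle markers added up to 804 CPM in 4T1 replicate 3 and 243 CPM in 4T1 replicate 1, and to at most 52.7 CPM in the other tumors of these lines. Pancreatic acinar genes summed to 80.3, 22.0 and 10.7 CPM in the 4T07 and 2.87 to 4.39 CPM in the 4T1 tumors. Lung epithelial genes summed to 126 CPM in 4T07 replicate 1 and 10.4 to 38.6 CPM in the other tumors of these lines. In the 67NR tumors they summed to 65.6, 416 and 99.7 CPM. These differences in tissue content are named beside several gene groups below, and their part in the other groups was not tested.

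**Figure D1:**
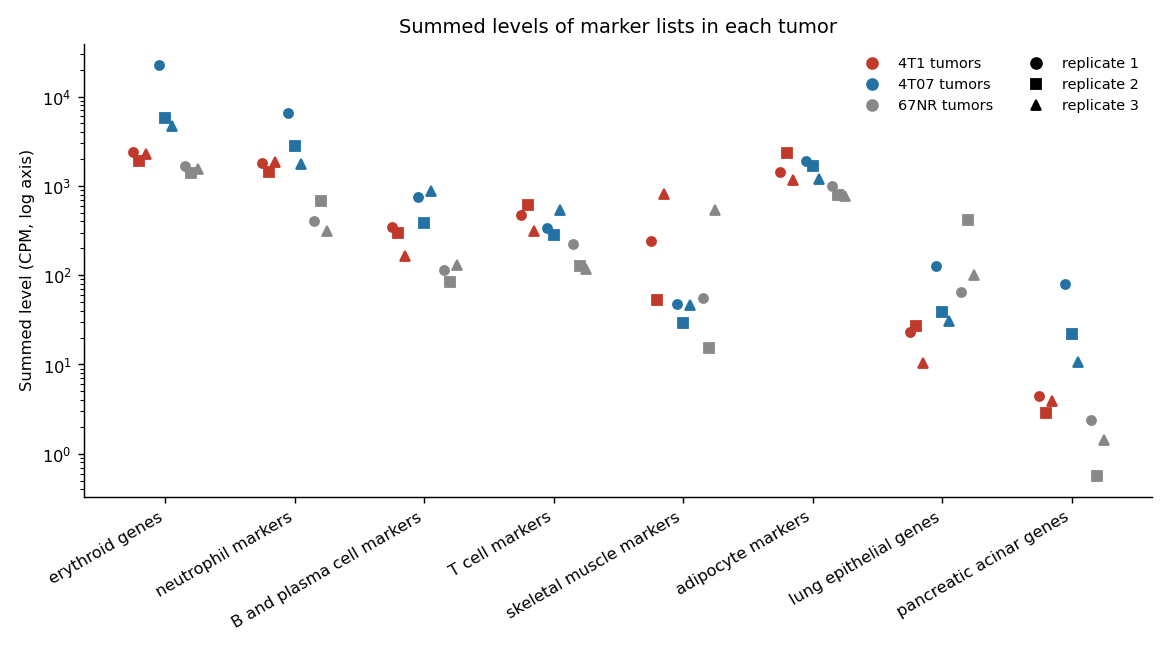
Summed levels (CPM, log axis) of 8 marker lists in each primary tumor, with colours for the lines and symbols for the replicates. 4T07 replicate 1 is highest of the 4T1 and 4T07 tumors for erythroid genes (22814 CPM) and neutrophil markers (6534 CPM), and 4T1 replicate 3 is highest of all tumors for skeletal muscle markers (804 CPM).

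At an edgeR adjusted p under 0.05 and a fold over 2, 1766 genes (9.07%) were called, 807 (4.14%) higher and 959 (4.92%) lower in 4T1 than in 4T07 tumors. The median log2 fold change (4T1 minus 4T07) of all genes tested was -0.03. DESeq2 also called 707 of the higher and 845 of the lower genes. Among the called genes, 236 of the higher and 415 of the lower ones differed by more than 4-fold, and 101 and 197 by more than 8-fold. The CPM ranges of 4T1 and 4T07 were disjoint for 1714 of the called genes, and for 7227 (37.1%) of all genes tested. Leaving out each tumor in turn, 462 of the higher and 465 of the lower genes were called every time. The count of lower genes was 633 without 4T1 replicate 1, the only tumor whose removal moved it by more than 1.5 times.

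**Figure D2:**
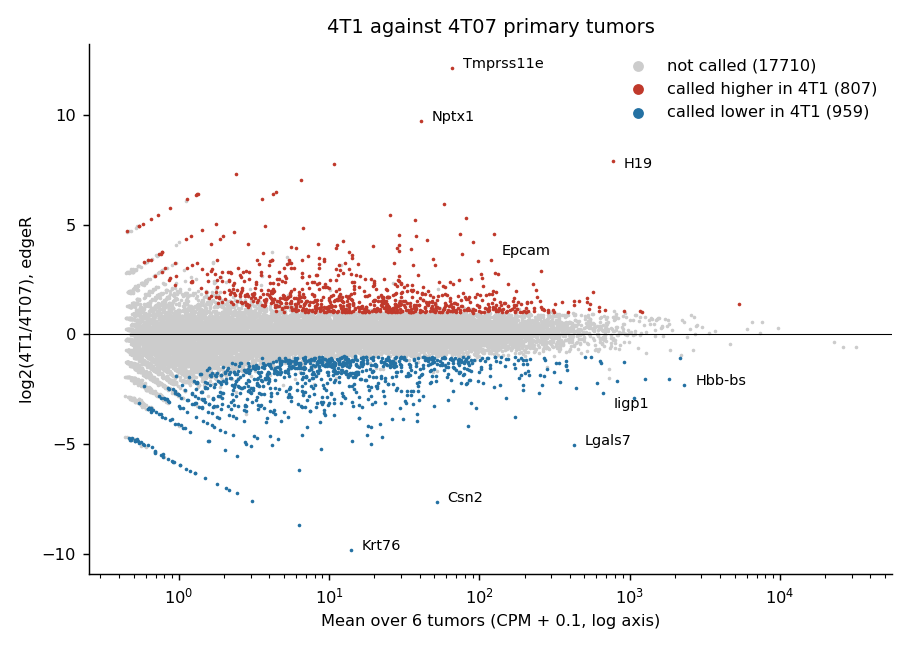
log2(4T1/4T07) from edgeR (4T1 minus 4T07 on the log2 scale) against the mean level over the 6 tumors (CPM + 0.1, log axis), with 1 point per tested gene. 807 genes are called higher (red) and 959 lower (blue), and Tmprss11e, Nptx1 and H19 lie farthest above 0 among the labelled genes and Krt76 and Csn2 farthest below.

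A few genes were switched, with no library above 3 counts in 1 line and at least 5 CPM in every tumor of the other. 6 genes were on in 4T1 in this sense and 7 in 4T07. Tmprss11e, a transmembrane serine protease of squamous epithelia, stood at 145, 123 and 127 CPM in the 4T1 tumors and had no count in any 4T07 or 67NR tumor, and was at least 199-fold higher in 4T1 than the floor of the 4T07 tumors. Foxc2, a forkhead factor of mesenchyme and lymphatic development, had 22.3, 18.9 and 22.2 CPM in 4T1 and 1 count in all 4T07 tumors together, a ratio of 297 (95% counting interval 52.9 to 11770). Dmbx1, a homeobox factor of the developing brain, had 10.6, 9.63 and 5.61 CPM against 1 count, a ratio of 123 (21.7 to 4885). None of these 3 genes had a 67NR tumor above 3 counts, unlike Dynap and Ppp1r26, which were also on in 4T1. In the other direction, Krt76, a keratin of the oral mucosa, stood at 12.0, 35.2 and 35.8 CPM in the 4T07 tumors without a count in 4T1, and was at least 45.9-fold higher in 4T07 than the 4T1 floor. Kcnh2, which encodes a cardiac potassium channel, had 7.63, 12.0 and 7.06 CPM in 4T07 against 8 counts over the 4T1 tumors, a ratio of 17.2 (8.48 to 40.7). Nppb, the natriuretic peptide B gene, had 7.22, 5.26 and 5.36 CPM against 3 counts, a ratio of 29.9 (9.88 to 148). For 5 of the 7 genes on in 4T07, but for 2 of the 6 on in 4T1, a 67NR tumor was above 3 counts as well.

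Epithelial identity and junction genes were higher in 4T1 tumors: 22 of 49 tested members were called higher, beside 4.14% of all genes, and 2 lower, with a median log2 fold change of 1.25. Epcam, the epithelial cell adhesion molecule, had 207, 203 and 235 CPM in the 4T1 tumors and 18.3, 22.0 and 24.8 CPM in the 4T07 tumors. All 4T1 tumors lay far above all 4T07 tumors, and the log2 fold change was 3.38 ± 0.24 (SE, n = 3 per line; edgeR adjusted p = 4.37e-07). Cldn4, a tight junction claudin, showed the largest change of the list, with 158, 159 and 161 CPM against 3.81, 3.63 and 5.08 CPM and a log2 fold change of 5.33 ± 0.23 (edgeR adjusted p = 4.73e-09). The levels within each line were nearly the same for this gene. Cdh1, the gene of E-cadherin, was expressed in both lines, at 159, 169 and 158 CPM in 4T1 and 59.8, 71.7 and 62.1 CPM in 4T07 tumors, with a log2 fold change of 1.39 ± 0.23 (edgeR adjusted p = 0.000907), beside 3.99 for the claudin gene Cldn3 and 1.79 for Cldn7. The desmosomal genes Dsp (desmoplakin), Dsg2, Pkp3 and Jup (plakoglobin) were called higher, Jup at 118, 101 and 111 CPM against 25.1, 25.0 and 19.5 CPM with no overlap (2.30 ± 0.18, edgeR adjusted p = 1.22e-06). So were Grhl2 and Klf5, transcription factors of epithelia, and Esrp1, an epithelial splicing regulator. Grhl2 had 13.9, 15.6 and 20.3 CPM in 4T1 against 1.20, 2.36 and 1.41 CPM in 4T07 tumors. The 2 members called lower were Ehf, an epithelial Ets factor (2.56, 2.25 and 0.432 CPM against 12.4, 11.6 and 9.88 CPM), and Gjb2, a connexin with at most 2.21 CPM in any tumor. Gjb2 was not called without 4T1 replicate 1 or without 4T1 replicate 2, which left 1 lower member. In bulk tissue, fewer cells of a type and less RNA per cell cannot be told apart. The 67NR tumors were lower than both lines for Epcam, at 4.84, 6.99 and 2.26 CPM.

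Keratins of simple epithelia moved the same way. Krt8, which pairs with Krt18 in the filaments of luminal cells, stood at 150.3, 142 and 152 CPM in the 4T1 and 23.9, 35.9 and 21.2 CPM in the 4T07 tumors. Krt18 had 539.8, 431 and 375 CPM against 45.0, 81.6 and 64.6 CPM. Both were separated between the lines without overlap, with log2 fold changes of 2.51 ± 0.21 and 2.88 ± 0.23 (edgeR adjusted p = 2.87e-06 and 1.43e-06). Krt7 showed a larger change, 4.60 ± 0.40 (edgeR adjusted p = 3.48e-06), from 5.62, 9.62 and 16.4 CPM in 4T07 to 238, 205 and 276 CPM in 4T1, and the basal keratin Krt14 a change of 3.28 ± 0.28. The basal keratin Krt5 and the luminal keratin Krt19 were not called, with log2 fold changes of -0.32 and -0.06 and overlapping tumors. In all, 4 of 14 tested keratins were called higher and Krt76 lower, with a median of 0.12 that turned to -0.13 without 4T07 replicate 2, was 0.38 without 4T07 replicate 1, was between 0.03 and 0.07 without any of the other tumors, and was 1.67 with at least 10 counts required in every tumor, when none was called lower.

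Epithelial serine proteases and their inhibitors included 8 members called higher and 2 lower of 24 tested, and 3 and 0 with at least 10 counts required in every tumor. Besides Tmprss11e, the higher members included Prss22, the matriptase gene St14, its partner prostasin (Prss8), the matriptase inhibitors Spint1 and Spint2, and Serpinb5 (maspin). Spint1 had 54.7, 51.7 and 43.4 CPM in 4T1 and 7.43, 6.89 and 10.4 CPM in 4T07 tumors. The tumors of the lines did not overlap, and the log2 fold change was 2.68 ± 0.22 (edgeR adjusted p = 2.87e-06). St14 had 17.7, 18.7 and 25.3 CPM against 3.01, 2.90 and 2.26 CPM (2.95 ± 0.32, edgeR adjusted p = 2.94e-05). Protease and inhibitor of this pair were thus both higher in 4T1. Hepsin (Hpn) and Klk8 were called lower, Klk8 at 4.39, 1.02 and 2.59 CPM in 4T1 and 12.2, 7.80 and 13.5 CPM in 4T07.

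**Figure D3:**
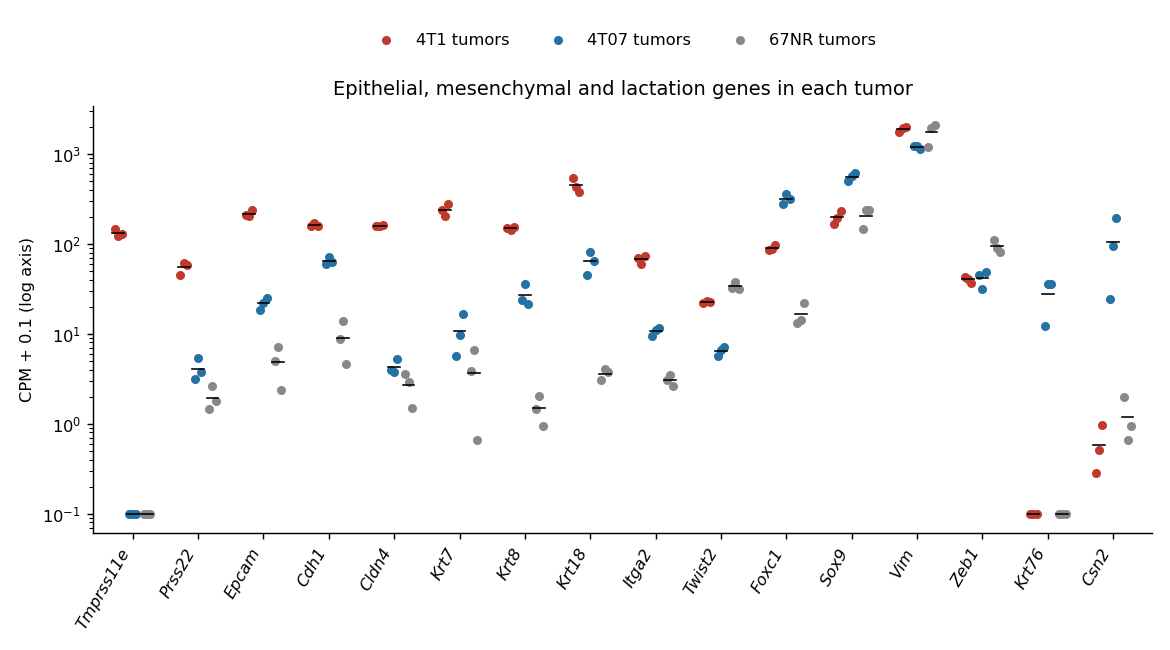
Levels of 16 genes (CPM + 0.1, log axis) in each primary tumor of 4T1 (red), 4T07 (blue) and 67NR (gray), with the mean of each line as a black bar. Epithelial genes from Tmprss11e to Itga2 lie higher in every 4T1 than in every 4T07 tumor, Foxc1, Sox9, Krt76 and Csn2 lie lower, and the tumors of both lines overlap for Zeb1.

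Regulators and markers of the mesenchymal state were called in both directions: 6 of 28 tested were called higher and 4 lower in 4T1, with a median of 0.46. Vim, the vimentin gene, was abundant in both lines and higher in every 4T1 tumor, at 1763, 1917 and 2006 CPM against 1230.0, 1217 and 1132 CPM, but its log2 fold change of 0.73 ± 0.22 was below the fold threshold (edgeR adjusted p = 0.0325). Twist2, a basic helix-loop-helix factor, stood at 22.1, 23.2 and 22.2 CPM in 4T1 and 5.62, 6.53 and 7.06 CPM in 4T07 tumors. It was separated without overlap (1.88 ± 0.21, edgeR adjusted p = 3.24e-05), and its relative Twist1 was called higher as well (1.84). Id3, an inhibitor of helix-loop-helix factors, was higher at 199.9, 179 and 180.2 CPM against 50.6, 88.2 and 53.3 CPM (1.60 ± 0.23, edgeR adjusted p = 0.00029). The repressors of Cdh1 did not move together. Zeb2 was called lower (108, 113 and 147 CPM in 4T1 and 296, 222 and 341 CPM in 4T07, -1.16 ± 0.20), whereas Zeb1 (0.01), Snai2 (-0.04) and Snai1 (-0.66, edgeR adjusted p = 0.0501) were not called, and the sign of the value of Zeb1 changed under 5 of the other processing choices and without 4T1 replicate 1 or 4T07 replicate 2. Foxc1 and Sox9, transcription factors of basal-like carcinoma, were high in 4T07 tumors. Foxc1 had 85.8, 86.7 and 96.9 CPM in 4T1 and 275, 354 and 312 CPM in 4T07, a log2 fold change of -1.74 ± 0.19 (edgeR adjusted p = 2.52e-05), opposite in sign to that of Foxc2. Sox9 had 167, 192 and 233 CPM against 499, 562 and 616 CPM (-1.44 ± 0.22, edgeR adjusted p = 0.000441). S100a4, a calcium-binding protein tied to motility, was called higher at 779, 1125 and 413 CPM against 353, 380.3 and 202 CPM, and was not called without 4T1 replicate 2. 67NR tumors had the highest levels of this gene, at 5453, 3474 and 3721 CPM.

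Laminin chains of epithelial basement membranes and their receptors were higher in 4T1 tumors. Lamb3 had 25.6, 17.6 and 19.9 CPM in the 4T1 tumors and 2.21, 0.907 and 0.564 CPM in the 4T07 tumors. Every 4T1 tumor was above every 4T07 tumor (4.09 ± 0.41, edgeR adjusted p = 1.44e-05). Lama3 changed by 3.42 ± 0.38 (edgeR adjusted p = 3.28e-05). The laminin-binding integrin chains Itga3 (608, 669 and 729 CPM against 231, 313 and 191 CPM) and Itgb4 (169.5, 200.5 and 215 CPM against 40.3, 75.1 and 38.9 CPM), and the collagen receptor chain Itga2 (2.72 ± 0.20) were called higher as well. Over the whole list of laminins, integrins and hemidesmosome genes, 6 of 33 were called higher and 3 lower, with a median of 0.41. The lower ones were Itgb7 and Itga2b, integrin chains of lymphocytes and platelets, and Itgb8. Itga2b was not called when 4T07 replicate 1 or 2 or any of the 4T1 tumors was left out, and Itgb8 was not called without 4T07 replicate 2.

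In the wider matrix, 9 of 61 glycoproteins, proteoglycans and crosslinkers were called higher and 2 lower (18.0% called, median 0.29). Of 40 collagen chains 5 were called higher and 3 lower (20% called, median 0.24). Of all genes 9.07% were called. Of the 2 lower glycoprotein genes 1, Ccn3, was not called without 4T07 replicate 1 or any of the 4T1 tumors. Tnc, the gene of tenascin C, a glycoprotein of remodelled stroma and metastatic niches, had 237, 235 and 354 CPM in the 4T1 and 55.0, 70.2 and 94.5 CPM in the 4T07 tumors. Every 4T1 tumor was above every 4T07 tumor, with a log2 fold change of 1.97 ± 0.22 (edgeR adjusted p = 3.57e-05). Postn, which encodes periostin, a niche protein as well, had 177, 199 and 169.9 CPM in 4T1 and 89.3, 86.2 and 83.0 CPM in 4T07 (1.14 ± 0.15, edgeR adjusted p = 0.000145). The collagens called higher were Col18a1 and Col15a1, of basement membrane zones, Col8a1, Col7a1, which anchors the epithelial basement membrane, and Col6a2, which was not called without 4T07 replicate 2 or 4T1 replicate 2. Col18a1 stood at 152, 146 and 124 CPM against 41.7, 46.3 and 46.6 CPM (1.71 ± 0.17, edgeR adjusted p = 1.24e-05). Among those lower in 4T1 were Col6a5 (-3.52 ± 0.52) and Col4a5 (-1.89 ± 0.33). The third, Col9a1, was called with all tumors but not after removing any one of 4T07 replicates 2 and 3 and the 4T1 tumors. The list of metalloproteinases and inhibitors was mixed, with 3 called higher and 4 lower of 40 (17.5% called, median -0.19). Mmp10 (stromelysin 2), Mmp11 and Adamts8 were higher in 4T1. Mmp12, the macrophage elastase, had 77.2, 59.2 and 119 CPM in 4T1 and 683, 294 and 328 CPM in 4T07 tumors, and Mmp13 (collagenase 3) had 30.4, 17.8 and 49.4 CPM against 179, 79.1 and 112 CPM. Neither overlapped between the lines, and the changes were -2.28 ± 0.32 and -1.85 ± 0.32 (edgeR adjusted p = 0.000234 and 0.00128). The count of lower members was 2 without 4T07 replicate 1, 4T1 replicate 1 or 4T1 replicate 3, and that of higher members 5 without 4T07 replicate 1 or 4T1 replicate 2.

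Genes of milk proteins and lactation were lower in 4T1 tumors, with 10 of 20 tested members called lower and a median of -1.36. Csn2, the gene of beta-casein, stood at 24.5, 94.9 and 191 CPM in the 4T07 tumors and 0.183, 0.410 and 0.863 CPM in the 4T1 tumors. The 4T07 tumors differed widely among themselves, yet each lay above all 4T1 tumors (-7.64 ± 0.78, edgeR adjusted p = 1.48e-05). The alpha-casein gene Csn1s1 had the same order within 4T07, with 1.20, 7.98 and 16.9 CPM, and a change of -4.79 ± 0.89 (edgeR adjusted p = 0.0021). Prlr, the prolactin receptor, was lower in 4T1 at 24.0, 49.8 and 13.8 CPM against 67.0, 76.9 and 95.7 CPM (-1.39 ± 0.35, edgeR adjusted p = 0.0139), and was not called without 4T1 replicate 1. Xdh, a component of the milk fat globule, was lower by a smaller margin (-1.25 ± 0.21). In 67NR tumors Csn3, the kappa-casein gene, was high at 66.9, 135 and 147 CPM, above 16.3, 46.3 and 42.6 CPM in 4T07 and 7.13, 10.5 and 4.10 CPM in 4T1. The list shares Ltf (lactoferrin) with the neutrophil markers, which were highest in 4T07 replicate 1. With at least 10 counts required in every tumor, 5 members were called, and without 4T07 replicate 3 a member was called higher.

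Interferon gamma targets were lower in 4T1 tumors, with the lowest median of the 37 lists examined: 23 of 34 tested members were called lower, beside 4.92% of all genes, and the median was -1.86 beside -0.03 for all genes. The guanylate-binding proteins Gbp3, Gbp8 and Gbp9, which attack vacuoles of intracellular microbes, were among the smallest p-values of the list. Gbp3 had 29.6, 17.8 and 32.4 CPM in 4T1 and 158, 157 and 89.2 CPM in 4T07 (-2.27 ± 0.26, edgeR adjusted p = 4.01e-05), and Gbp8 9.33, 6.56 and 9.07 CPM against 85.7, 74.6 and 50.0 CPM (-3.00 ± 0.25, edgeR adjusted p = 3.05e-06). Iigp1, an immunity-related GTPase, reached 1353, 1171 and 944 CPM in 4T07 tumors against 163, 69.3 and 282 CPM in 4T1. Of the 4T1 tumors replicate 2 was lowest, and the lines did not overlap (-2.68 ± 0.37, edgeR adjusted p = 0.0002). Also called lower were Irf1, a transcription factor of the response (372, 308 and 438 CPM against 991, 943 and 738 CPM), the feedback inhibitor Socs1, the chemokine Cxcl9 and the tryptophan-degrading enzyme Ido1. Guanylate-binding proteins and the GTPases Tgtp1 and Tgtp2 are families of close copies, so that reads may be shared among members.

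The promoters of 3 called targets are shown because they hold the DNA motif through which interferon-regulated factors act. Windows of 250 bases before to 50 after the start of each gene were taken from RefSeq on GRCm38.p6. The motif searched was the core of the interferon-stimulated response element, GAAANNGAA, on both strands. Matches are in capitals in a stretch of 60 bases upstream of each start, written 5′ to 3′ on the strand of the gene. The match nearest to the start begins 38 (Gbp3), 70 (Tgtp2) and 76 (Cd274) bases before it. Each stretch was cut around that match and ends short of the start. The stretches lie at chr3:142559980-142560039 (plus strand) for Gbp3, chr11:49064249-49064308 (minus strand) for Tgtp2 and chr19:29367336-29367395 (plus strand) for Cd274.
Gbp3: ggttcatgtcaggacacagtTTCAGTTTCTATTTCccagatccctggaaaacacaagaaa
Tgtp2: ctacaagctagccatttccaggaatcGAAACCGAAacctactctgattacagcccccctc
Cd274: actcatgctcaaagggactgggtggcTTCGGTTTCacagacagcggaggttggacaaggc
Gbp3 holds 2 overlapping matches and the others 1 each in the printed stretch. A RefSeq window was found for 28 of the 40 genes called lower in the 2 lists of interferon targets. The motif was found for 18 of these 28 genes (64.3%), against 2638 of all 27025 genes with a window (9.76%). A gene counted if any of its windows held the motif. The share was 12 of 16 for the called gamma targets and 6 of 12 for the called members of the broader list of interferon-stimulated genes, in which it was also 19 of 28 for members that were not called. The gamma-activated site, TTCNNNGAA, which reads the same on both strands, was found for 9 of the 28 genes (32.1%). Of all genes with a window, 9.55% held it. A match describes the letters of the window and not a bound site.

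Within the broader list of interferon-stimulated genes, which respond to type I interferons as well, 17 of 58 were called lower, with a median of -0.77, and 9 without 4T1 replicate 2. The lower members included the antiviral genes Zbp1 (38.4, 32.0 and 51.4 CPM in 4T1 and 131, 139 and 120.2 CPM in 4T07), Cmpk2, Rsad2 and Oas3. The single member called higher was Ifitm1, an interferon-induced transmembrane protein. Its levels were 151, 101 and 122 CPM in 4T1 and 30.7, 47.5 and 51.1 CPM in 4T07 tumors. The lines did not overlap (1.61 ± 0.29, edgeR adjusted p = 0.00161), and 67NR tumors were far lower, at 3.23, 6.15 and 1.13 CPM.

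The ligand and its signalling chain split. Ifng itself had 0.549, 0.205 and 0.648 CPM in the 4T1 tumors, no library of which was above the floor of 3 counts, and 6.02, 4.54 and 3.95 CPM in the 4T07 tumors (-3.23 ± 0.52, edgeR adjusted p = 0.000757). The receptor chains Ifngr1 (-0.14) and Ifngr2 (-0.07) and the kinase gene Jak1 (0.04) were not called and overlapped between the lines. Jak2, the other kinase of the receptor, was higher in 4T1 instead, at 109.5, 105 and 132 CPM against 56.2, 47.7 and 62.1 CPM without overlap (1.13 ± 0.18, edgeR adjusted p = 0.000674). In the list of interferons, receptors and Jak-Stat genes it was the only member called higher, while 7 of 23 were called lower (median -0.50). Stat2 and Irf9, which act together in the type I response, were among them. Irf9 (-1.06 ± 0.17) was not called without 4T07 replicate 3 or 4T1 replicate 2.

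**Figure D4:**
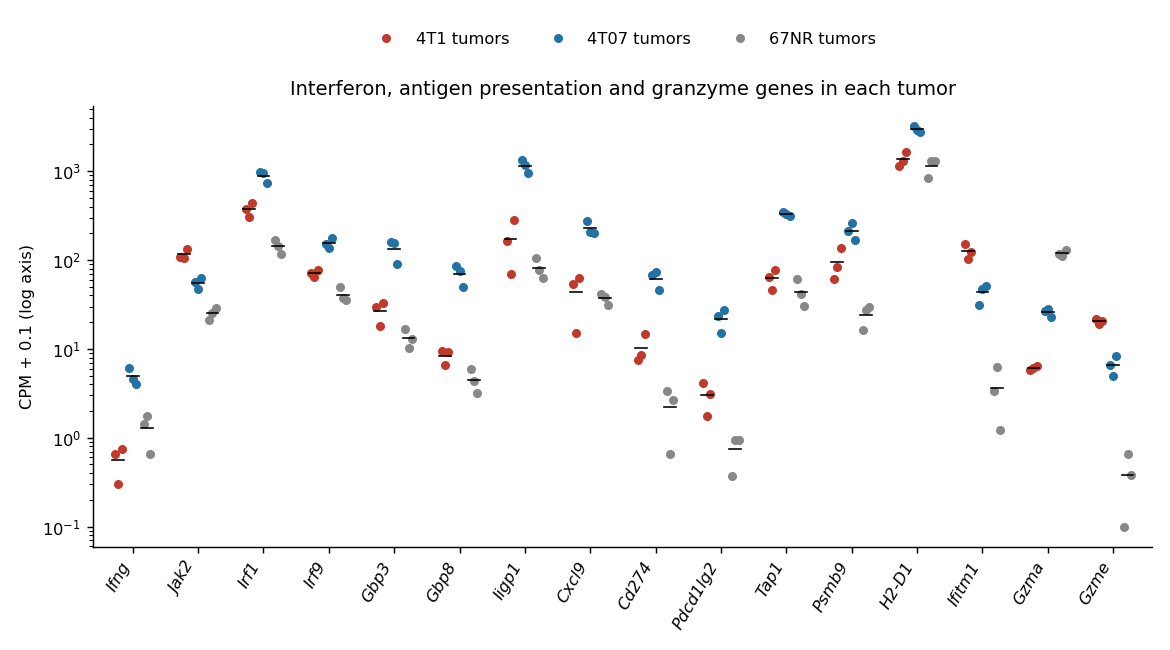
Levels of 16 genes (CPM + 0.1, log axis) in each primary tumor of 4T1 (red), 4T07 (blue) and 67NR (gray), with the mean of each line as a black bar. From Ifng to H2-D1 every gene but Jak2 is lower in all 4T1 than in all 4T07 tumors, and Jak2, Ifitm1 and Gzme are higher. 67NR tumors are close to 4T1 for several interferon targets, such as Iigp1 (106, 76.7 and 63.5 CPM).

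Genes of MHC class I presentation were lower in 4T1 tumors for 6 of 28 tested members, with a median of -0.71. Tap1, a subunit of the peptide transporter, had 64.4, 45.7 and 77.9 CPM in 4T1 and 349, 328 and 311 CPM in 4T07 tumors. The separation was complete (-2.33 ± 0.23, edgeR adjusted p = 1.21e-05). H2-D1, the gene of a classical class I heavy chain, stood at 1136, 1312 and 1625 CPM against 3256, 2937 and 2792 CPM (-1.08 ± 0.22, edgeR adjusted p = 0.00366), and was not called without 4T1 replicate 1. B2m, the light chain, was below the fold threshold, at 1707, 1759.7 and 2442 CPM against 3642, 3390.1 and 2949 CPM (-0.69 ± 0.23, edgeR adjusted p = 0.0564). Heavy chain genes are near copies of each other, and their counts are uncertain in that respect. Of 14 class II genes H2-DMb1, which loads class II molecules, was called lower (-1.35 ± 0.19), a share of 7.14% beside 9.07% of all genes. The list median was -0.39, and was -0.06 without 4T07 replicate 3 and -0.15 without 4T1 replicate 3.

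Of 17 tested genes of regulatory T cells and checkpoints, 6 were called lower, beside 4.92% of all genes (median -0.83). Cd274 and Pdcd1lg2 are also members of the list of interferon gamma targets and were counted there too. Cd274, the gene of PD-L1, had 7.31, 8.40 and 14.5 CPM in 4T1 and 67.2, 72.6 and 45.4 CPM in 4T07 tumors. Even the highest 4T1 tumor, replicate 3, was well below the lowest 4T07 tumor (-2.56 ± 0.31, edgeR adjusted p = 7.55e-05). Pdcd1lg2, its neighbour, which encodes PD-L2, had 4.02, 1.64 and 3.02 CPM against 23.1, 14.9 and 27.4 CPM (-2.81 ± 0.36, edgeR adjusted p = 0.000113). The receptor gene Pdcd1 (PD-1) was low in both, at 1.10, 1.23 and 1.08 CPM and 4.82, 3.81 and 6.21 CPM, and was called (-2.01 ± 0.48, edgeR adjusted p = 0.0104), as was Il2ra, the alpha chain of the interleukin 2 receptor. Ctla4 was called as well, but not without 4T07 replicate 1 or 3 or 4T1 replicate 1 or 2.

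Cytotoxic and NK cell markers divided by family. Of 25 tested, 9 were called lower and 3 higher (median -1.09). Gzma, the granzyme A gene, had 5.67, 5.94 and 6.26 CPM in 4T1 and 26.3, 28.1 and 22.6 CPM in 4T07 tumors, and 67NR tumors were higher still at 116, 111 and 131 CPM. The values were tight within each line (-2.04 ± 0.19, edgeR adjusted p = 6.34e-06). Gzmk, Klrc1, Ncr1, Ccl5 and Tbx21 were also lower, Ncr1, an activating receptor of NK cells, at 4.94, 6.76 and 1.30 CPM against 14.9, 17.8 and 12.1 CPM (-1.71 ± 0.37, edgeR adjusted p = 0.00618). The 3 higher members were the clustered granzyme genes Gzmc, Gzmd and Gzme, which are close in sequence. Gzme stood at 21.8, 19.1 and 20.7 CPM in 4T1, 6.42, 4.90 and 8.18 CPM in 4T07 and 0, 0.560 and 0.282 CPM in 67NR (1.74 ± 0.29 between 4T1 and 4T07, edgeR adjusted p = 0.00105). Gzmb (-0.07) and the perforin gene Prf1 (0.13) were not called, and their tumors overlapped.

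Of 22 tested T cell markers, none was called by edgeR or by DESeq2. At an unadjusted edgeR p under 0.05, 3 were higher, but the share of all genes at that level was not taken. The list median of -0.17 turned to 0.40 without 4T07 replicate 3 and to 0.13 without 4T1 replicate 3. Summed over the list, the levels were 476, 609 and 311 CPM in the 4T1 and 339, 278 and 535 CPM in the 4T07 tumors. Much of these sums came from Thy1, the member with the highest mean level. Thy1 had 223, 300 and 222 CPM in 4T1 and 143, 137 and 148 CPM in 4T07 tumors. It did not overlap between the lines but was below the fold threshold (0.86 ± 0.19, edgeR adjusted p = 0.00705). Cd3e, a chain of the T cell receptor complex, had 9.33, 13.7 and 3.02 CPM in 4T1 and 9.83, 6.17 and 16.1 CPM in 4T07 tumors. Replicate 3 was the lowest of the 4T1 and the highest of the 4T07 tumors, and the lines overlapped. Without 4T07 replicate 3, 3 members were called higher, and without 4T1 replicate 3, 1 was. Among 17 B and plasma cell markers, Ighm (immunoglobulin mu chain) and Jchain were called lower (11.8% called, beside 9.07% of all genes). Ighm stood at 90.3, 76.7 and 47.7 CPM against 426, 187 and 279.7 CPM (-1.98 ± 0.28, edgeR adjusted p = 0.000262). Jchain was not called without 4T07 replicate 1 or 3 or 4T1 replicate 2 or 3, while 6 markers were called lower without 4T07 replicate 2. The B cell gene Ms4a1 (CD20) was highest in 4T07 replicate 3, with 26.1, 11.6 and 66.0 CPM in the 4T07 and 14.6, 15.4 and 2.16 CPM in the 4T1 tumors, and was not called (-1.60 ± 0.61, edgeR adjusted p = 0.0923).

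Chemokines and myeloid growth factors went in both directions, with 12 of 48 called lower and 5 higher (median -0.02). Ccl8, a monocyte-attracting chemokine, stood at 222, 385 and 278 CPM in 4T1 and 1393, 1349.7 and 1291 CPM in 4T07 tumors. The 4T07 tumors were alike and all above 4T1 (-2.13 ± 0.20, edgeR adjusted p = 6.34e-06). Cxcl9, which draws T cells and is induced by interferon gamma, had 53.8, 15.2 and 63.5 CPM against 277, 206 and 203 CPM (-2.30 ± 0.35, edgeR adjusted p = 0.00052), with 4T1 replicate 2 lowest. Cxcl5, a neutrophil attractant, had 29.8, 23.6 and 41.0 CPM against 95.1, 181 and 146 CPM (-2.10 ± 0.35). Il11, Cxcl12, Cxcl15 and Ccl5 were also lower in 4T1. Of the 5 higher members, Csf3 encodes G-CSF, the growth factor of granulocytes, and had 16.3, 18.9 and 17.9 CPM in 4T1, 3.01, 7.98 and 8.47 CPM in 4T07 and no count in 67NR tumors. No 4T07 tumor reached the 4T1 range (1.52 ± 0.34, edgeR adjusted p = 0.01). Il23a, a subunit of interleukin 23, was at 23.6, 26.4 and 27.4 CPM against 1.61, 5.62 and 5.08 CPM (2.72 ± 0.37, edgeR adjusted p = 0.000184). Cx3cl1, the ligand of Cx3cr1, was higher by 1.08 ± 0.20, and Cxcl14 and Ccl17 were called as well.

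Macrophage and monocyte markers had 8 members called lower and 2 higher of 35 (median -0.29), and their summed level overlapped between the lines, at 9114, 9929 and 8537 CPM in 4T1 and 10560.3, 9652 and 9931 CPM in 4T07 tumors. Single genes nevertheless differed widely in both directions. Cx3cr1, the fractalkine receptor of monocytes and resident macrophages, had 239, 232 and 189.7 CPM in 4T1 and 32.3, 35.9 and 29.4 CPM in 4T07 tumors. The groups lay far apart (2.82 ± 0.27, edgeR adjusted p = 9.81e-06), and 67NR tumors, at 302, 164 and 113 CPM, were near 4T1. Gpnmb, a glycoprotein of lysosome-rich macrophages, went the other way, at 23.0, 27.7 and 17.3 CPM against 325, 359 and 279 CPM (-3.76 ± 0.26, edgeR adjusted p = 4.37e-07). Fcgr4, an activating receptor for IgG, was lower at 36.9, 27.7 and 44.0 CPM against 228, 139.5 and 158 CPM (-2.21 ± 0.23, edgeR adjusted p = 1.57e-05). Ly6c2, a marker of inflammatory monocytes, and Retnla, of alternatively activated macrophages, were lower too. Without 4T07 replicate 1 the count of lower members was 4. Vsig4, the other higher member, changed by 1.64 ± 0.45, had under 4 CPM in every tumor of both lines, and was not called without 4T07 replicate 1 or 2 or 4T1 replicate 1 or 2. The broad markers Csf1r (0.73), Adgre1 (-0.97) and C1qa (-0.63) did not pass the fold threshold. Dendritic cell markers had 3 members called lower and 1 higher of 20 (20% called, beside 9.07% of all genes). Clec10a, a lectin of conventional dendritic cells and macrophages, was lower (24.9, 44.7 and 25.5 CPM against 119.8, 169 and 127 CPM, -2.07 ± 0.26), and Ccl17, a chemokine, was higher (2.52 ± 0.47), with 2 higher members without 4T07 replicate 3.

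Neutrophil markers were called lower in 4T1 for 11 of 35 tested members and higher for Trem1, with a median of -0.81. Among the lower members were genes of the granules that are made while neutrophils mature in the marrow, such as Mpo (myeloperoxidase), Ctsg (cathepsin G), Ltf and Ngp. Ngp had 390.1, 91.3 and 37.5 CPM in 4T07 and 22.3, 15.2 and 9.93 CPM in 4T1 tumors. 4T07 replicate 1 was far above all others, as it was for erythroid genes, and the part of that library's cell content in these values was not tested. Without it Ngp was not called and the count of lower members was 6, and DESeq2 called 7. Without 4T07 replicate 1, 4T1 replicate 1 or 4T1 replicate 2 there were 2 higher members. The genes of mature neutrophils S100a8 (-1.56 ± 0.82, edgeR adjusted p = 0.22) and S100a9 (-1.98 ± 0.78, edgeR adjusted p = 0.099) were not called. S100a8 stood at 413, 249 and 400.0 CPM in 4T1 and 2070.1, 800.1 and 423 CPM in 4T07 tumors, where the lowest 4T07 tumor was just above the highest 4T1 tumor. Trem1, an activating receptor of neutrophils and monocytes, was called higher in 4T1, at 37.3, 35.3 and 23.3 CPM in 4T1 and 6.22, 8.35 and 7.06 CPM in 4T07 (2.21 ± 0.29, edgeR adjusted p = 0.000125). Acod1, the itaconate-producing enzyme of activated myeloid cells, was lower at 8.96, 4.30 and 12.3 CPM against 66.2, 42.5 and 35.8 CPM (-2.43 ± 0.33).

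Eosinophil and mast cell markers were called lower for 7 of 23 members (median -0.84), led by Ccr3, the eotaxin receptor, at 4.39, 4.71 and 5.61 CPM against 17.7, 17.1 and 13.5 CPM (-1.65 ± 0.28, edgeR adjusted p = 0.00113). Prg2, the gene of eosinophil major basic protein, had 159.9, 34.8 and 19.5 CPM in 4T07, highest in replicate 1, and 8.59, 5.12 and 2.37 CPM in 4T1 (-3.63 ± 0.64, edgeR adjusted p = 0.00149). Without 4T07 replicate 1 the count of this list was 2, without 4T1 replicate 2 it was 3 and without 4T1 replicate 3 it was 4. Globin genes were lower in 4T1 as well. Hbb-bs, a beta-globin gene with the near copy Hbb-bt, had 733, 650.0 and 842 CPM in 4T1 and 7983, 2118 and 1549 CPM in 4T07 tumors (-2.31 ± 0.44, edgeR adjusted p = 0.00268). 4T07 replicate 1 was highest, with the highest erythroid sum of the 6 tumors, and without it the log2 fold change was -1.25.

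Fibroblast markers had 2 members called higher and 1 lower of 22 (13.6% called, beside 9.07% of all genes). Their median of -0.08 turned to 0.14 without 4T07 replicate 1, 0.06 without 4T1 replicate 1 and 0.00156 without 4T1 replicate 3. Has2, a hyaluronan synthase, was higher at 53.6, 54.1 and 94.8 CPM in 4T1 and 15.5, 12.3 and 19.8 CPM in 4T07 tumors (2.16 ± 0.28, edgeR adjusted p = 0.00014), and Cxcl12 was lower at 78.3, 79.5 and 69.9 CPM against 225, 148 and 171 CPM (-1.19 ± 0.18, edgeR adjusted p = 0.000399). Mfap5, the other higher member, was not called without 4T07 replicate 2. Without 4T07 replicate 1 or 3 or 4T1 replicate 2 or 3, 2 markers were called lower, Pdgfra in addition to Cxcl12. Of 16 pericyte and smooth muscle markers 6 were called higher (median 0.67, and 0.20 with at least 10 counts required in every tumor), although their summed level overlapped, at 373, 456 and 570 CPM in 4T1 and 453, 321 and 469 CPM in 4T07 tumors. Among the 6 were Acta2 (smooth muscle actin) at 122, 116 and 181 CPM against 81.7, 32.1 and 65.2 CPM (1.29 ± 0.28, edgeR adjusted p = 0.00565) and Mcam (1.35 ± 0.27). Des (desmin), also a muscle gene, had 4.39, 2.87 and 19.0 CPM in 4T1 and 1.61, 0.544 and 1.13 CPM in 4T07 tumors, and was highest in 4T1 replicate 3, as skeletal muscle markers were. The pericyte genes Rgs5 (-0.54) and Pdgfrb (0.08) were not called. Acta2 was not called without 4T07 replicate 2, when the count was 2, and the count was 3 without 4T1 replicate 3, when a member was called lower. Endothelial markers had Esm1 and Ptprb called lower and Eng (endoglin) higher of 28 (10.7% called, beside 9.07% of all genes). Esm1, a proteoglycan of endothelial tip cells that some carcinoma cells also express, had 8.23, 4.71 and 12.1 CPM in 4T1 and 65.8, 268 and 143 CPM in 4T07 tumors. It was more than an order of magnitude apart on average (-4.19 ± 0.46, edgeR adjusted p = 2.61e-05), while Pecam1 (-0.49) and Cdh5 (0.26) were not called. Ptprb was not called without 4T07 replicate 1 or 4T1 replicate 1, and 2 markers were called higher without 4T07 replicate 2.

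Skeletal muscle and fat were unevenly present. Of 17 muscle markers tested 5 were called higher in 4T1 (median 3.17, and 1.75 without 4T1 replicate 3), with Acta1 at 42.4, 4.92 and 169.9 CPM in 4T1 and 3.41, 1.81 and 5.36 CPM in 4T07 tumors. The values were high in 4T1 replicates 3 and 1, and 4T1 replicate 2 fell within the range of 4T07 (4.48 ± 1.31, edgeR adjusted p = 0.0308). The count ranged from 0 without 4T1 replicate 3 or 4T07 replicate 1 to 8 without 4T1 replicate 2, was 3 without 4T1 replicate 1, 2 without 4T07 replicate 3 and 1 without 4T07 replicate 2. The adipocyte gene Adipoq had 35.1, 81.8 and 31.7 CPM in 4T1 and 35.5, 23.9 and 7.90 CPM in 4T07 tumors, overlapping (1.18 ± 0.40, edgeR adjusted p = 0.0608). Of 20 adipocyte markers Plin4 was called higher (5% called, beside 9.07% of all genes). Plin4 was not called without 4T1 replicate 2, the tumor with the highest fat markers. The count was 3 without 4T07 replicate 1 and 4 without 4T1 replicate 3, and 1 marker was called lower without 4T07 replicate 3 or 4T1 replicate 2.

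**Figure D5:**
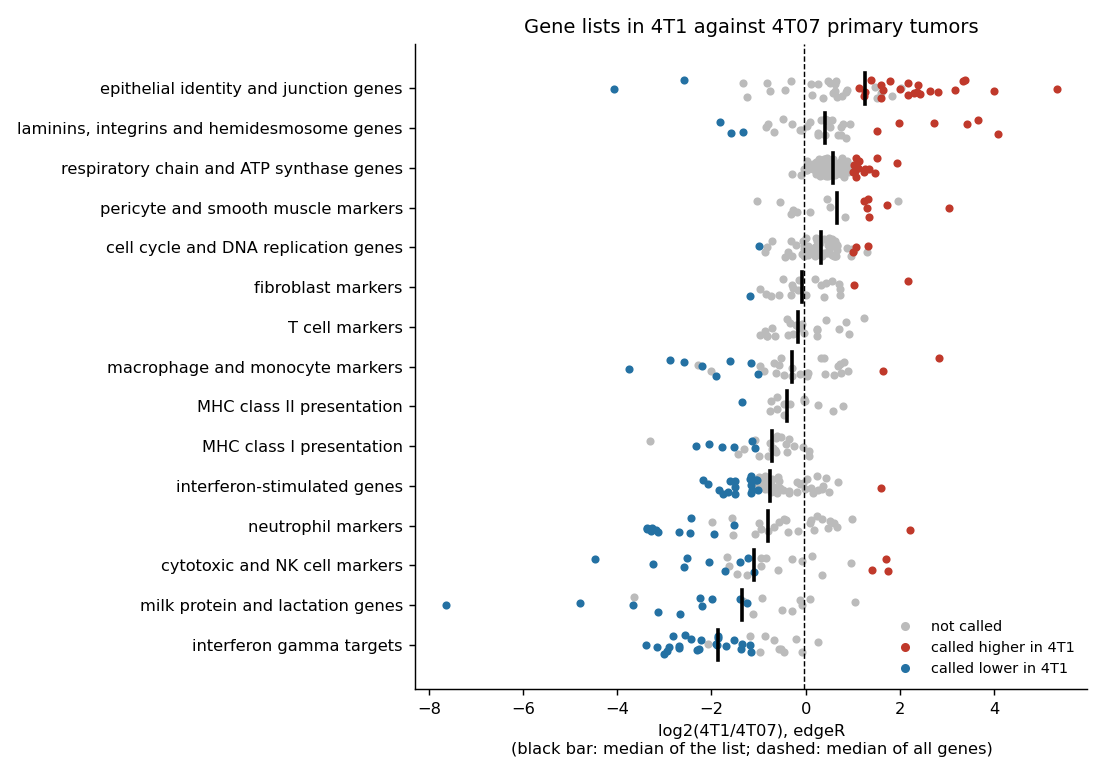
log2(4T1/4T07) from edgeR of the tested members of 15 gene lists, with called members in red (higher in 4T1) or blue (lower), the list median as a black bar and the median of all genes as a dashed line. Medians run from -1.86 for interferon gamma targets to 1.25 for epithelial identity and junction genes.

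Some genes of bone and of imprinted loci differed strongly. Of 20 tested bone matrix and mineralization genes 4 were called higher and 3 lower (median -0.10), and 1 and 0 with at least 10 counts required in every tumor. Ibsp, the gene of bone sialoprotein, had 86.3, 53.3 and 76.6 CPM in 4T1 and 0.602, 3.45 and 1.69 CPM in 4T07 tumors, and no count in 67NR. The lines were far apart (5.24 ± 0.40, edgeR adjusted p = 3.86e-06). Pthlh, the gene of the parathyroid hormone-related protein that drives bone resorption, had 18.7, 26.2 and 32.8 CPM against 0, 4.17 and 2.26 CPM (3.61 ± 0.58, edgeR adjusted p = 0.00117), and was not called by DESeq2. Msx1 was not called without 4T07 replicate 2 or 3 or 4T1 replicate 1 or 2. Phex, a peptidase of phosphate balance, was lower in 4T1, at 2.01, 1.64 and 1.08 CPM against 10.8, 20.0 and 13.3 CPM (-3.12 ± 0.35, edgeR adjusted p = 3.32e-05), as were the osteocalcin genes Bglap and Bglap2, near copies with at most 4.01 CPM in any tumor. Of 38 imprinted genes 4 were called higher and 1 lower (13.2% called, beside 9.07% of all genes), with a median of 0.01. H19, a noncoding RNA, and Phlda2, a growth-restraining gene, both of the imprinted region of distal chromosome 7, were among the largest changes. Phlda2 stood at 61.1, 64.2 and 42.7 CPM in 4T1 and 2.81, 2.54 and 1.98 CPM in 4T07 tumors (4.55 ± 0.32, edgeR adjusted p = 4.37e-07). H19 had 1667, 1377 and 1561 CPM in 4T1 and 6.82, 5.62 and 7.34 CPM in 4T07 tumors. The count of higher imprinted genes was 2 without 4T07 replicate 1 or 4T1 replicate 3, and Gnas, the lower member, was not called without 4T07 replicate 3 or 4T1 replicate 2.

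Wnt ligands were called in both directions. Of 49 tested pathway members 8 were called higher and 5 lower (median 0.22). Wnt6 had 0.183, 0.820 and 0.216 CPM in 4T1 and 15.9, 19.4 and 15.8 CPM in 4T07 tumors, with the 4T1 tumors near the floor (-5.25 ± 0.45, edgeR adjusted p = 3.48e-06). Wnt10a and Wnt10b, the potentiator Rspo3, and Notum, a secreted inhibitor of Wnt ligands, were also lower. Wnt7b had 172, 166 and 228 CPM against 31.3, 77.5 and 56.4 CPM and was higher (1.83 ± 0.26, edgeR adjusted p = 0.000291), together with Wnt7a and the receptor genes Fzd3, Fzd6 and Lrp5. Lrp5 stood at 37.1, 50.6 and 42.5 CPM against 12.8, 14.0 and 9.31 CPM (1.90 ± 0.20, edgeR adjusted p = 2.39e-05). Among 41 TGF-beta and BMP family genes 3 were called higher and 2 lower (12.2% called, beside 9.07% of all genes), with a median of 0.32. Bmp7 had 20.8, 21.9 and 18.8 CPM in 4T1 and 2.01, 2.36 and 2.82 CPM in 4T07 tumors (3.16 ± 0.27, edgeR adjusted p = 3.48e-06), and Bmp1, the procollagen protease, 162, 171 and 132 CPM against 39.3, 51.7 and 49.7 CPM (1.79 ± 0.19, edgeR adjusted p = 2.39e-05). Gdf15, a stress-induced cytokine, was lower (-1.55 ± 0.30). Bmp2, the other lower member, was not called without 4T07 replicate 2 or 4T1 replicate 1 or 2.

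Nuclear genes of the respiratory chain and ATP synthase lay slightly above the rest in 4T1 tumors. Of 77 tested, 73 had a positive log2 fold change, and the median was 0.58. At an unadjusted edgeR p under 0.05, 50 were higher, but the share of all genes at that level was not taken. By the thresholds used here 13 (16.9%) were called, all higher, beside 4.14% of all genes called higher. Cox8a, a subunit of cytochrome c oxidase, had 784, 894 and 602 CPM in 4T1 and 305, 340.2 and 213 CPM in 4T07 tumors (1.47 ± 0.27, edgeR adjusted p = 0.00195). Within each line replicate 3 was lowest. The count fell with the removal of single tumors, to 6 without 4T07 replicate 1, 3 without 4T07 replicate 3 and 5 without 4T1 replicate 1 or 2, and was 8 when libraries were scaled by their totals alone. Of 11 mitochondrially encoded genes none was called by edgeR or DESeq2. At an unadjusted edgeR p under 0.05, 3 differed, again without a share of all genes to set beside them. The ribosomal RNA mt-Rnr2 had 17617, 16468 and 27278 CPM in 4T1 and 29275, 31435 and 36163 CPM in 4T07 tumors (-0.60 ± 0.25, edgeR adjusted p = 0.118). Glycolysis and hypoxia genes were called about as often as all genes (4 of 44, 9.09%, beside 9.07%) and had a median of -0.01, with Adm (adrenomedullin) and Ddit4 called higher and Eno2 (enolase 2) and Epas1 (the hypoxia-inducible factor 2 alpha gene) lower. Eno2 had 3.11, 5.53 and 4.75 CPM against 15.7, 30.7 and 24.8 CPM (-2.35 ± 0.31, edgeR adjusted p = 0.000159). Without single tumors 1 to 6 genes of this list were called higher and 2 to 5 lower, the higher counts being 6 without 4T07 replicate 2 and 4 without 4T1 replicate 1, and the lower ones 5 without 4T1 replicate 3 and 4 without 4T07 replicate 1. Ddit4 was not called without 4T07 replicate 1 or 4T1 replicate 2, and Adm was not called without 4T07 replicate 1.

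Of 56 cell cycle and DNA replication genes 42 had a positive value (median 0.32), with Cdk4, Mcm7 and Cdk1 called higher and Ccne1 lower. The share called was 7.14%, beside 9.07% of all genes. Cdk4, the kinase of the G1 phase, had 58.9, 61.7 and 47.9 CPM in 4T1 and 20.5, 29.0 and 20.6 CPM in 4T07 tumors (1.32 ± 0.22, edgeR adjusted p = 0.00105). Mcm7 (1.00) was at the fold threshold and was called neither by DESeq2 nor without 4T07 replicate 2 or 4T1 replicate 2 or 3, and Cdk1 was not called without 4T07 replicate 3. Ccne1 was called lower with all tumors, but not after removing any one of the 4T1 tumors or 4T07 replicate 1, 5 members were called higher without 4T07 replicate 1, and 2 were called lower without 4T07 replicate 2.

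The study's scaffold signature, 9 genes it chose on scaffolds of this series, was read in the tumors too, and is no independent evidence of a direction. Ifitm1 was called higher and Spon2 lower, and the median was 0.50. Spon2, a secreted matrix protein, had 2.38, 3.07 and 2.59 CPM in 4T1 and 5.82, 6.71 and 12.1 CPM in 4T07 tumors (-1.52 ± 0.39, edgeR adjusted p = 0.0163), and was not called without 4T07 replicate 3 or 4T1 replicate 1. Dhx9, an RNA helicase, was at 229, 257 and 225 CPM against 145, 151 and 143 CPM, below the fold threshold (0.76 ± 0.16, edgeR adjusted p = 0.00437). The values of Ndufs1 (0.05), Pja2 (0.25), Slc1a3 (0.50), Soga1 (0.52), Fhl1 (0.80) and Dusp12 (-0.46) were not called. With 4T07 replicate 1 left out, Fhl1 was called higher as well.

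The 67NR mean lay nearer to 4T07 for most genes higher in 4T1 and nearer to 4T1 for most genes lower in it. These shares cannot show a likeness between lines. The share over all tested genes was not taken, and the gene filter used the 4T1 and 4T07 tumors only. Fewer genes had counts in the 67NR tumors (20923, 19730 and 20178) than in any tumor of the other lines (22033 to 24748). Of the 807 higher genes, the 67NR mean of log2(CPM + 1) was nearer to 4T07 for 524 (64.9%), and below both lines for 364. Of the 959 lower genes it was nearer to 4T1 for 736 (76.8%), and below both for 517. Epithelial genes such as Lamb3 (0.269, 0.560 and 0 CPM in 67NR) and interferon targets such as Gbp8 (5.91, 4.20 and 3.11 CPM) were among those with 67NR below both lines. Twist2, in contrast, was highest in 67NR, at 32.5, 37.5 and 31.6 CPM.

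Calls lay on every autosome and the X chromosome, in unequal shares. The share called higher ran from 2.87% on chromosome 2 to 8.66% on chromosome 19, beside 4.14% of all genes. Of the tested genes, 16962 matched a RefSeq gene by symbol, and no run of 5 neighbouring tested genes was called in a single direction. Such a run would be rare at these shares, so its absence cannot show that calls were evenly spread. The median log2 fold change of genes with at least 5 CPM was highest on chromosomes 19 (0.345), 10 (0.30) and 8 (0.23) and lowest on chromosomes 14 (-0.09) and 6 (-0.08). On chromosome 19, 49 of 566 tested genes (8.66%) were called higher and 25 lower. Jak2, which was higher in 4T1, lies on this chromosome close to Cd274 and Pdcd1lg2, which were lower.

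The same contrast was made in other tissues of mice that carried these lines, and in scaffolds and spleens few of the tumor differences recurred. In scaffolds, 87 genes (0.447%) were called between 4T1 and 4T07 mice, in spleens 372 (1.91%) and in lungs 4120 (21.2%). Of the genes called higher in tumors, 9 of 807 were called higher in scaffolds (1.12% of the tumor calls and 18% of the 50 scaffold calls in that direction), and of those called lower 14 of 959 (1.46%, and 37.8% of 37). Ifitm1 was higher in 4T1 in scaffolds (log2 fold change 1.45), lungs (2.04) and spleens (2.33), beside 1.61 in tumors. Trem1 was higher in scaffolds by 1.43, and Spon2 lower (-1.53). In spleens, 58 of the 959 lower genes were called lower, among them Ccl8 (-4.53), Gpnmb (-1.33) and Sox9 (-1.74), while 25 of the 807 higher genes were called lower. In lungs, 222 of the 807 higher genes (27.5%) were called higher and 66 lower, and 232 of the 959 lower genes (24.2%) were called lower and 117 higher. The difference between the tumor effect and that in another tissue was tested as an interaction over 24 libraries. It was called for 910 genes (4.67%) against scaffolds, 1178 (6.05%) against spleens and 4002 (20.5%) against lungs. Epcam and Cd274 were called in all 3 tests, and their log2 fold changes in scaffolds were 0.20 and 0.17. The lungs of 4T07 mice, all 3 of them, were unlike those of 4T1 mice in tissue content: erythroid genes summed to 73975 to 95544 CPM against 26549 to 36722 CPM, B and plasma cell markers to 2462 to 3346 CPM against 318 to 412 CPM, and lung epithelial genes to 6397 to 16058 CPM against 31701 to 38920 CPM. The part of this difference in the lung comparison was not tested, and no 4T07 lung without it remains.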

How the data were processed

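RNA of flash-frozen primary tumors, scaffolds, lungs and spleens was sequenced by the authors from the 3' end (Lexogen QuantSeq FWD with unique molecular identifiers). The deposited values are raw read counts per gene symbol. The submitters' processing notes name Trim Galore 0.5.0, STAR 2.6.0 and featureCounts; the genome build, annotation, use of strand and collapsing of identifiers are not given in the sources used here. From the 55487 lines of the table, counts of 120 repeated symbols were summed, and 1 column of the table was not used.

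Groups were taken from the sample labels. Genes whose counts added up to more than 10 in the 4T1 and 4T07 tumors were fitted with edgeR 4.0.16 in R 4.3.3 (TMM factors, quasi-likelihood F test, 9 tumors in a single fit). A gene was called at a Benjamini-Hochberg adjusted p under 0.05 and a fold over 2. Effects in other tissues and their differences from the tumor effect (interactions) were fitted over the 24 libraries of both lines in 4 tissues. The standard error was the absolute log2 fold change divided by the square root of F. CPM express a count in 1000000 counts of the whole library, TMM factors left out, and totals of 3543303 to 5511691 counts set the floor of 3 counts. Intervals of ratios are exact binomial (conditional) 95% intervals and cover counting error only. The scripts were tested on simulated data.

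Alternatives were DESeq2 1.42.0, its size factors, library totals alone, no filter, a minimum of 10 counts in each tumor, only the 6 tumors, and leaving out each tumor. Genes named by rule were called, non-overlapping genes of at least 5 CPM with the 10 largest changes or the 10 highest levels in each direction, up to 3 called members per list and direction with the smallest adjusted p, defining cell type markers, and the study's scaffold signature. Other list members, and the lists of erythroid, pancreatic acinar, lung epithelial and splenic red pulp macrophage genes, were named after their values were seen. The comparison and all lists were chosen with earlier results of these data known.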

Additional observations from a re-analysis of the deposited data

Results flagged for a closer look

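Given here are named genes that were called between 4T1 and 4T07 both in tumors and in another tissue, with opposite signs, and for which the difference between these effects was called as well. Values are the tumor value minus the value in the other tissue, each with the edgeR adjusted p of the interaction. Genes whose effect in the other tissue was not called are not among them. No explanation was weighed.

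Against scaffolds, the muscle myosin gene Myh4 differed by 7.41 (4.08 in tumors and -3.29 in scaffolds, edgeR adjusted p = 0.000326), and in tumors it moved with the muscle content of 4T1 replicate 3. Against spleens, Dynap differed by 10.92 (4.85 and -6.01, edgeR adjusted p = 1.97e-05), with no count in the 4T1 spleens and 19 counts over the 4T07 spleens, so that the fitted size depends on the prior count. S100a4 differed by 4.36 (1.37 and -2.95, edgeR adjusted p = 2.73e-05), the collagen gene Col8a1 by 4.70 (1.68 and -2.99, edgeR adjusted p = 1.28e-06) and the integrin gene Itga2 by 3.82 (2.72 and -1.06, edgeR adjusted p = 2.22e-08).

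Against lungs 18 genes were flagged, and all of them rest on the 4T07 lungs, which held more erythroid and fewer lung epithelial transcripts than the 4T1 lungs. The cell cycle genes Cdk4, Mcm7 and Cdk1 were higher in 4T1 tumors and lower in 4T1 lungs, with differences of 2.89, 3.41 and 4.73 (edgeR adjusted p = 2.83e-06, 3.04e-06 and 1.43e-06), as was the macrophage gene Vsig4, with 4.28 (edgeR adjusted p = 0.00016). The other genes were lower in 4T1 tumors and higher in 4T1 lungs. Itih2 and Inmt had the widest differences, -6.69 and -6.51 (edgeR adjusted p = 2.85e-06 and 1.37e-06). For the endothelial genes Esm1 and Ptprb they were -5.71 and -2.37 (edgeR adjusted p = 1.51e-07 and 1.78e-05), and for the myeloid genes Acod1 and Cadm1 -4.17 and -3.13 (edgeR adjusted p = 5.45e-05 and 3.2e-07). The epithelial genes Ehf, Klk8 and Foxq1 had -3.73, -3.26 and -4.63 (edgeR adjusted p = 2.63e-05, 7.74e-05 and 1.12e-05). For the matrix genes Col4a5 and Ogn the values were -2.99 and -3.39 (edgeR adjusted p = 7.34e-05 and 5.34e-07), and for Xdh, Wnt10b and Epas1 -2.45, -3.51 and -2.74 (edgeR adjusted p = 1.04e-07, 1.35e-06 and 2.72e-06).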

How the results depend on the processing

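The direction of every list median past 0.5 in size was kept under all alternatives tried. Under a minimum of 10 counts in each tumor, which leaves out genes that are off in a line, 1077 genes were called, 463 higher and 614 lower, and the counts were 14 for epithelial and junction genes, 5 for milk genes, 7 for the respiratory chain, 3 for eosinophil markers, 3 for pericyte markers and 2 for skeletal muscle. Muscle markers gave 14 calls without a filter and 12 with only the 6 tumors. Neutrophil markers gave 7 calls under DESeq2, and respiratory chain genes 8 with library totals alone. Leaving out each tumor gave 1252 to 1784 called genes, 619 to 830 higher and 633 to 954 lower. The same removals gave 9 to 18 lower interferon-stimulated genes, 6 to 14 neutrophil, 2 to 7 eosinophil, 2 to 5 pericyte and 0 to 8 muscle markers, and 3 to 13 respiratory chain genes. Beyond the fewer genes or tumors that these settings hold, the cause was not tested.

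Among the genes named by rule, the sign changed for 7, none of which was called. Other genes were not checked for a change of sign. Zeb1 had a log2 fold change of -0.0121 under DESeq2, -0.0138 with its size factors, -0.0518 with library totals, -0.00169 without a filter, -0.0462 with the minimum of 10 counts, and -0.159 to 0.137 without single tumors. Ndufs1 had -0.0122 with library totals, -0.00855 with the minimum of 10 counts, and -0.0530 to 0.138 without single tumors. Over the removals of single tumors, Trbc2 ran from -0.167 to 0.773, Cd3e from -0.671 to 0.189, Cd8a from -0.359 to 0.145, Cd79a from -0.948 to 1.495 and Pdgfrb from -0.0560 to 0.190. The median of all genes was -0.06 with the size factors of DESeq2 and -0.09 with library totals.

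No paired analysis was possible because the labels do not link samples across groups. Genes without more than 10 counts over the 6 tumors were not tested. No ratio or bound was computed for tested genes with no library above 3 counts in either line.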
